A study of Mus musculus with 97 samples.

Results

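Green neurons and progenitors that had lost Cdk5r1 were compared between a cortex in which every cell lacked the gene and a cortex in which only sparse cells lacked it, at embryonic day 16 (E16). The members are the E16 libraries labelled KO-Cdk5r1-MADM, 11 in all, and those labelled Cdk5r1-MADM with at least 50% uniquely aligned reads, 7 in all. Together they are 18 of the 97 libraries of the series. Cdk5r1 encodes p35, the neuronal activator of the kinase CDK5, which phosphorylates microtubule, actin and adhesion regulators in migrating neurons. Mice without p35 form a cortex in which later-born neurons fail to pass earlier-born ones, and p35/CDK5 works beside Reelin signalling in this process. MADM (mosaic analysis with double markers) recombines a pair of reporter cassettes on homologous chromosomes, so that single cells become fluorescent and, where an allele is placed on a cassette, their genotype follows from their colour.

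All mice were of strain CD1 and carried the MADM-11 cassettes GT and TG on chromosome 11 together with Emx1-Cre, which recombines in progenitors of the dorsal telencephalon. In Cdk5r1-MADM, with the cassettes MADM-11 GT/TG,Cdk5r1, the mutant allele lies on TG alone, so that the GFP+ cells are homozygous mutant within a heterozygous tissue. In KO-Cdk5r1-MADM, with MADM-11 GT,Cdk5r1/TG,Cdk5r1, both cassettes carry it and every cell of the animal is mutant. In both groups the sorted cells thus have the same Cdk5r1 genotype, and the comparison asks what differs with the genotype of the tissue around them. Control-MADM, with MADM-11 GT/TG and 12 libraries, carries no mutant allele and is given as the reference. Each library is polyadenylated RNA from 2000 GFP+ cells sorted from 1 cortex, so 1 replicate is 1 animal, and no other treatment was given. Counts on genes ranged from 2768307 to 5267196 per Cdk5r1-MADM library (median 4476377) and from 1094174 to 6743597 per KO-Cdk5r1-MADM library (median 4573355). Levels are given as normalized CPM, counts per 1000000 of the library's total on tested genes after TMM scaling. These are bulk samples, so fewer cells of a type and less RNA per cell cannot be told apart.

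The deleted gene was measured first in every library. Cdk5r1 (ENSMUSG00000048895.13, mm10 chr11:80477023-80481184, plus strand) was at 59.3, 67.9 and 74.3 CPM in the lowest, median and highest Cdk5r1-MADM library. In KO-Cdk5r1-MADM the corresponding levels were 44.4, 52.7 and 65.0 CPM, and in control-MADM 107, 204 and 241 CPM. Every library of both mutant genotypes thus lay below every control-MADM library, and 8 of the 11 KO-Cdk5r1-MADM libraries lay below the lowest Cdk5r1-MADM library. The count is over the whole gene, and reads inside and outside the deleted bases were not told apart. Between the mutant genotypes the log2 fold change was -0.32 (SE, the standard error, 0.116, p = 0.00891, adjusted p = 0.345 in edgeR), which did not pass the test. Without the 5 libraries named in the next paragraph it was -0.25 (adjusted p = 0.991 in edgeR). Emx1, a transcription factor of the dorsal telencephalon that was picked as a check after its values were seen, was present in all of these libraries, at 115 to 149 CPM in Cdk5r1-MADM and at 59.1 to 180 CPM in KO-Cdk5r1-MADM.

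Before the results, 5 libraries must be named that stood apart at E16. They are KO-Cdk5r1-MADM replicates 8, 9, 10 and 11 and control-MADM replicate 12, and no Cdk5r1-MADM library is among them. Markers of interneurons and ventral progenitors, cells that arise outside the Emx1 lineage, sum to 1181, 1261, 1301 and 1369 CPM in these KO-Cdk5r1-MADM libraries and to 1378 CPM in the control-MADM library. All other E16 libraries lie between 103 and 259 CPM, and a limit of 1000 CPM separates them. Red cell markers reach 7102, 6909, 7677 and 3366 CPM in KO-Cdk5r1-MADM replicates 8 to 11 and 13118 CPM in control-MADM replicate 12, where every other library is at or below 683 CPM. Choroid plexus and ependyma markers are at 7017, 8166 and 6434 CPM in KO-Cdk5r1-MADM replicates 8, 9 and 11, but at 74.2 CPM in replicate 10 and at 39.5 CPM in the control-MADM library. The libraries apart therefore share interneuron and blood markers and differ among themselves in the choroid plexus. In the 4 KO-Cdk5r1-MADM libraries Emx1 was at 59.1 to 118 CPM, against 115 to 180 CPM in the other 7. Reads on more than 1 gene were 6.67 to 8.93% of their reads, against 4.50 to 6.24% in the other 7 and 5.09 to 6.00% in Cdk5r1-MADM. Uniquely aligned reads were 63.5 to 66.8% of their reads, against 70.1 to 74.0% in the other 7. The first principal component, with 30.7% of the variance, placed the 4 at 49.2 to 102, the control-MADM library at 50.8, and all other KO-Cdk5r1-MADM and Cdk5r1-MADM libraries between -23.7 and 8.08. Most results are given with all libraries and without these 5. They were found by their values, so leaving them out was chosen after seeing the data, and what sets them apart was not tested.

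**Figure D1:**
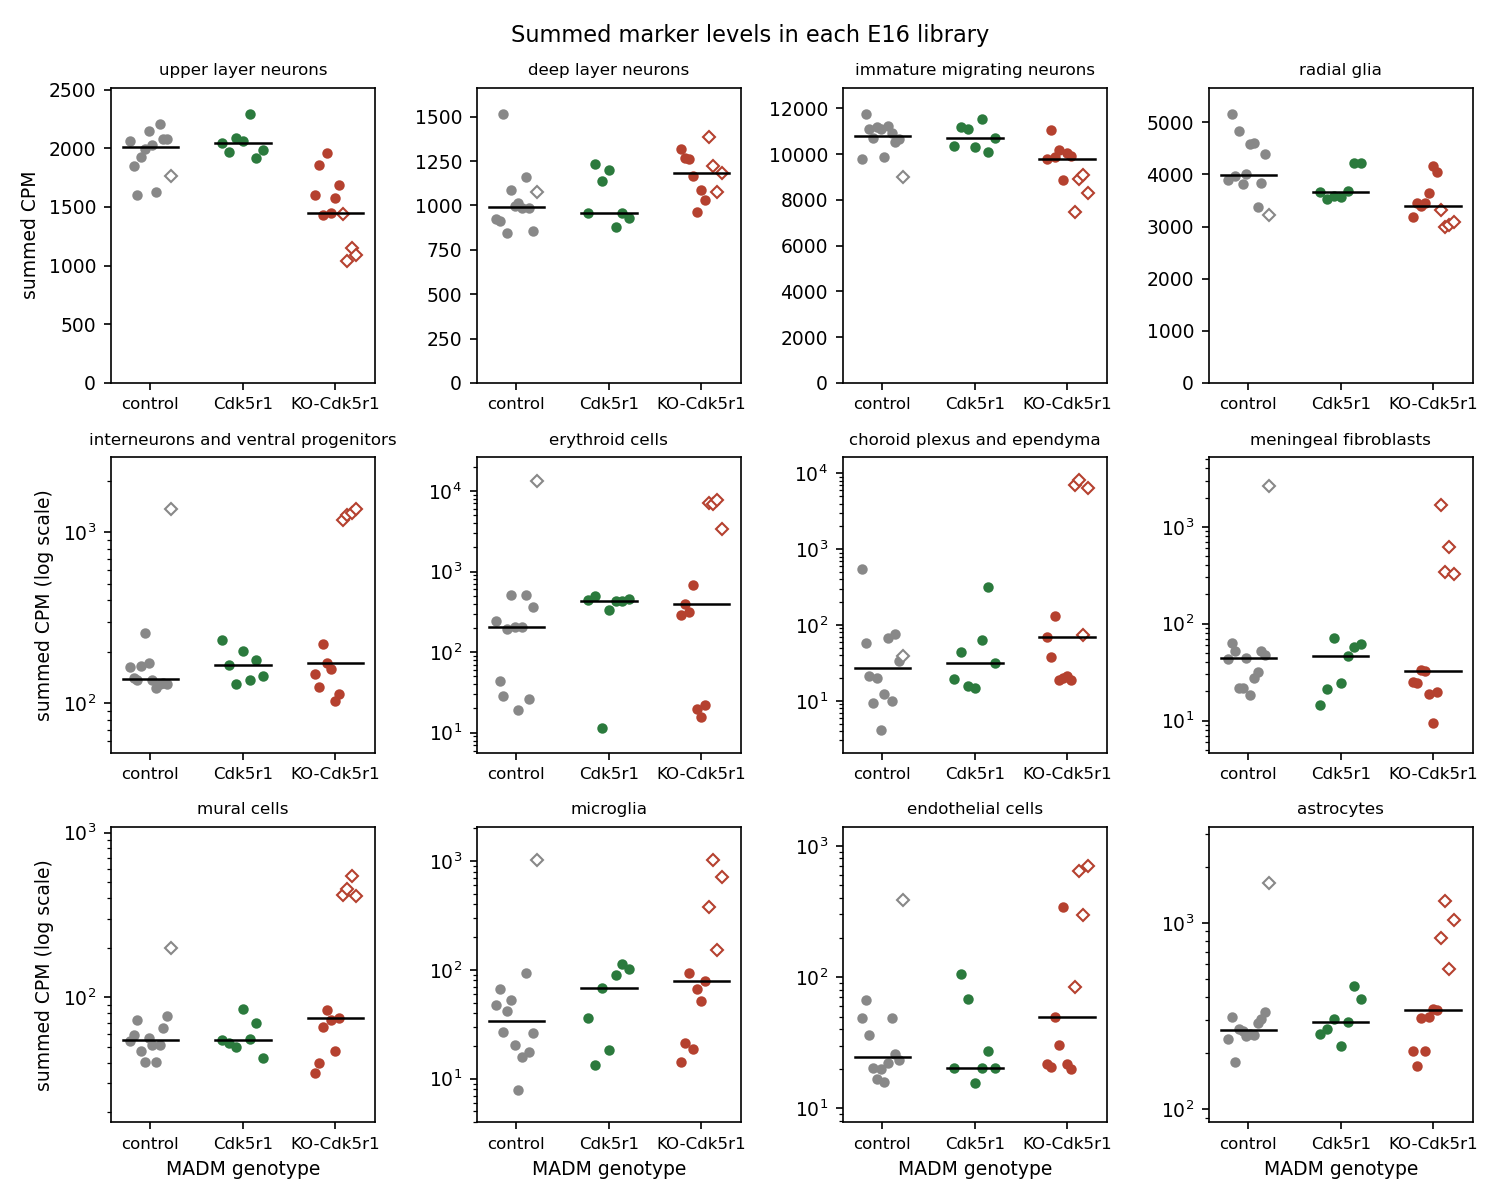
Each point is 1 E16 library and gives the summed level of the markers of 1 cell type in normalized CPM, on a linear axis in the top panels and a log axis in the others, with open diamonds for the 5 libraries apart, filled circles for all others and black lines for the median over all libraries of a genotype. Upper layer markers lie between 1917 and 2290 CPM in Cdk5r1-MADM and between 1037 and 1960 CPM in KO-Cdk5r1-MADM.

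With the whole tissue mutant, markers of upper layer neurons were lower than in sparse mutant cells, with a median log2 fold change of -0.42 over 12 genes where the median of all 12801 genes tested was 0.01. Without the 5 libraries apart the upper layer median was -0.23. Markers of immature migrating neurons were lower as well, with a median of -0.39 that moved to -0.10 without the 5 libraries apart. Deep layer markers were at 0.08 with and -0.06 without those libraries, and intermediate progenitor markers at -0.04 and 0.08. Markers of interneurons, meninges, choroid plexus, vessels, blood and microglia were higher, with medians between 1.89 and 3.80. These differences sit mainly in those libraries, although the endothelial median was still 0.58 without them. Gene by gene almost nothing passed the test. In edgeR's quasi-likelihood test, 1 gene (0.00781% of 12801) had an adjusted p under 0.05, mt-Nd3, a mitochondrially encoded subunit of complex I, which fell. Its pseudogene Gm28438, which differs at 1 of 345 compared bases, held more reads in KO-Cdk5r1-MADM, as described below. At an unadjusted p under 0.05, 781 genes were higher (6.10%) and 510 were lower (3.98%), and DESeq2 called 23 genes higher and 7 lower. Without the 5 libraries, 1 gene of 12591 was called (0.00794%), the secreted procollagen N-proteinase gene Adamts2, which fell. At an unadjusted p under 0.05, 273 genes were then higher (2.17%) and 377 lower (2.99%). The counts in each list below are to be read against these shares.

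Upper layer neurons were the cortical cell type whose markers were most evenly lower. Of the 12 markers, 11 had a log2 fold change below 0. At an unadjusted p under 0.05, 7 were lower and 1 was higher, where 3.98% and 6.10% of all genes tested were, and none passed the adjusted test. The higher one was Plxnd1, a semaphorin receptor gene, and like all genes below that are given without a value it was picked after its values were seen. The summed level was 1917, 2046 and 2290 CPM in the lowest, median and highest Cdk5r1-MADM library and 1037, 1449 and 1960 CPM in KO-Cdk5r1-MADM. Of the 11 KO-Cdk5r1-MADM libraries, 10 lay below the lowest Cdk5r1-MADM library, so the groups overlap by a single library. With the libraries apart left out, KO-Cdk5r1-MADM was at 1434, 1600 and 1960 CPM with 6 of 7 libraries below the lowest of Cdk5r1-MADM, the list's median was -0.23, and again 11 of 12 genes were below 0, with 4 at an unadjusted p under 0.05. In control-MADM without its library apart the sum was 1602, 2031 and 2208 CPM. Lmo4, a LIM-only transcriptional cofactor and the most abundant of these markers per kilobase, was at 275 to 371 CPM in Cdk5r1-MADM and 173 to 333 CPM in KO-Cdk5r1-MADM.

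Mef2c, an activity-dependent transcription factor of cortical neurons, was at 156, 235 and 246 CPM in the lowest, median and highest Cdk5r1-MADM library and at 75.1, 116 and 230 CPM in KO-Cdk5r1-MADM. Its log2 fold change was -0.83 (SE 0.187, p = 0.000102, adjusted p = 0.186 in edgeR), and -0.79 without the libraries apart (adjusted p = 0.298). The low values were therefore shared by libraries on both sides of the limit, with 6 of the other 7 below the lowest Cdk5r1-MADM library. Cux1, a homeodomain factor of upper layer dendrite growth, had a log2 fold change of -0.35 (adjusted p = 0.287), and -0.25 without the libraries apart.

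Among markers of immature migrating neurons, 14 of 16 had a log2 fold change below 0 and 5 were lower at an unadjusted p under 0.05, where 6216 and 510 of all 12801 genes were. Their median moved from -0.39 to -0.10 without the libraries apart, with 12 of 16 below 0 and 2 at an unadjusted p under 0.05. The summed level was 10098 to 11551 CPM in Cdk5r1-MADM and 7471 to 11043 CPM in KO-Cdk5r1-MADM, with 9 of 11 libraries below the lowest Cdk5r1-MADM library and 5 of 7 when the libraries apart were left out. The 5 lower genes were Bcl11a, Sema3c, Nrp1, Tiam2 and Neurod6. Bcl11a, a zinc-finger repressor needed for radial migration and neuron identity, was at 425, 501 and 557 CPM in Cdk5r1-MADM and 222, 350 and 490 CPM in KO-Cdk5r1-MADM, with a log2 fold change of -0.49 (SE 0.129, adjusted p = 0.282 in edgeR). Without the libraries apart its log2 fold change was -0.29 (adjusted p = 0.722 in edgeR). With all libraries its groups overlap in 3 KO-Cdk5r1-MADM libraries. The guidance ligand Sema3c and the semaphorin receptor Nrp1 had log2 fold changes of -0.83 and -0.75 (adjusted p = 0.337 and 0.436), and -0.49 and -0.32 without the libraries apart. Tubb3, the neuronal tubulin that is the most abundant marker of the list per kilobase, was at 3743 to 4809 CPM in Cdk5r1-MADM and 3501 to 6126 CPM in KO-Cdk5r1-MADM, with both groups overlapping widely.

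Deep layer markers gave another picture. Their sum was 880, 958 and 1235 CPM in the lowest, median and highest Cdk5r1-MADM library and 961, 1185 and 1383 CPM in KO-Cdk5r1-MADM, with 4 of 11 libraries above the highest and none below the lowest. The list's median was 0.08, and -0.06 without the libraries apart. Its most abundant marker per kilobase, Rprm, a p53-inducible gene of layer 6 neurons, had a log2 fold change of 0.44 (adjusted p = 0.329) and of 0.26 without the libraries apart, and the synaptotagmin gene Syt6 one of 1.15 and of -0.21. Syt6 was above the Cdk5r1-MADM range in 4 libraries, all of them apart. Subplate markers summed to 140 to 211 CPM in Cdk5r1-MADM and 151 to 255 CPM in KO-Cdk5r1-MADM, and 5 were tested, with a median of -0.15 and of -0.12 without the libraries apart. Nxph4, a neurexophilin and the most abundant subplate marker per kilobase, was at 67.9, 77.0 and 106 CPM in Cdk5r1-MADM and 62.3, 123.5 and 155 CPM in KO-Cdk5r1-MADM, with 8 of 11 libraries above the highest of Cdk5r1-MADM. Its log2 fold change was 0.56 (SE 0.201, p = 0.00816, adjusted p = 0.337 in edgeR), and 0.68 without the libraries apart (p = 0.000254, adjusted p = 0.214).

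Progenitor markers had medians near 0, with members on both sides. Radial glia markers had a median of -0.13, and -0.03 without the libraries apart, and summed to 3528 to 4224 CPM in Cdk5r1-MADM and 2982 to 4156 CPM in KO-Cdk5r1-MADM, with 8 of 11 libraries below the lowest of Cdk5r1-MADM and 4 of 7 without the libraries apart. Of the 16 markers, the brain lipid-binding protein gene Fabp7 and the glutamate transporter gene Slc1a3 were lower at an unadjusted p under 0.05 and the Notch target Hes1 was higher, with log2 fold changes of -0.41, -0.48 and 0.40 (adjusted p = 0.370, 0.335 and 0.406). Hes1 was at -0.08 with mitochondrial class, described below, as a covariate. Without the libraries apart the 3 genes were at -0.36, -0.30 and 0.42, and Hes5, Emx2 and Pdpn were then higher and Hopx lower at an unadjusted p under 0.05, in all 4 higher and 3 lower of 16 markers where 2.17% and 2.99% of all genes tested were. Fabp7, the most abundant per kilobase, was at 878, 1044 and 1314 CPM in Cdk5r1-MADM and 571, 785 and 1165 CPM in KO-Cdk5r1-MADM. Intermediate progenitor markers summed to 1477 to 1736 CPM in Cdk5r1-MADM and spread from 1009 to 1938 CPM in KO-Cdk5r1-MADM, with 5 libraries above and 6 below that range. All 4 KO-Cdk5r1-MADM libraries apart were among those below. Their list median was -0.04 over 10 genes, and 0.08 without the libraries apart, and the antiproliferative gene Btg2 alone had an unadjusted p under 0.05 over all libraries (log2 fold change 0.35). When the libraries apart were left out, Btg2 was at 0.14 (p = 0.244), and Neurog1 and Neurog2 were higher at an unadjusted p under 0.05. Hes6, a neurogenic inhibitor of Hes1 and the most abundant of them per kilobase, was at 385 to 460 and at 242 to 487 CPM. Cycling cell markers, 22 genes, had a median of -0.05, and 0.09 without the libraries apart. Their sum was 1202 to 1627 CPM in Cdk5r1-MADM and 1270 to 1742 CPM in KO-Cdk5r1-MADM. The replication helicase genes Mcm5 and Mcm2 were higher at an unadjusted p under 0.05 (log2 fold changes 0.40 and 0.33), 2 of 22 where 6.10% of all genes were, and without the libraries apart Mcm5 alone. Ube2c, the mitotic ubiquitin-conjugating enzyme that is most abundant per kilobase, was at 113 to 210 and at 138 to 240 CPM.

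Markers of cells that Emx1-Cre progenitors do not produce were mostly high in the libraries apart. Choroid plexus markers in KO-Cdk5r1-MADM replicate 10 and control-MADM replicate 12 lay within the range of the other libraries. So did endothelial markers in KO-Cdk5r1-MADM replicate 8. Interneuron and ventral progenitor markers had a median of 2.20 with 13 of 13 genes above 0 and 11 at an unadjusted p under 0.05, and a median of -0.36 over 10 genes without the libraries apart. This list set the limit that defines those libraries, so both values are a description only. Its most abundant gene per kilobase, the neuropeptide gene Sst, was at 1.25 to 39.4 CPM in Cdk5r1-MADM and 2.15 to 145 CPM in KO-Cdk5r1-MADM, 27.7 CPM at most without the libraries apart. Of the other lists, meningeal fibroblasts had a median of 3.80 (8 of 8 genes above 0, 7 with an unadjusted p under 0.05), choroid plexus and ependyma 3.48 (4 of 4, with 4), mural cells 2.69 (9 of 9, with 6), erythroid cells 2.65 (5 of 6, with 0), endothelial cells 2.27 (7 of 7, with 5) and microglia 1.89 (12 of 12, with 2). In these lists 4, 2, 5, 6, 5 and 8 passed the count minimum without the libraries apart. The others passed it through the libraries where they are high, so the counts above 0 are a description only. Leaving those libraries out, the medians were -0.83, -0.41, -0.08, -0.51, 0.58 and -0.36. The most abundant genes per kilobase were Ptgds, Ttr, Myl9, Hbb-bs, Cldn5 and C1qb. At 0 in every Cdk5r1-MADM library were Des of the mural list and Tmem212, Kl and Ccdc153 of the choroid plexus list, and 2 of the choroid plexus genes were at 0 in both groups. The members of smallest p were Gsx2 and Dlx6 of the interneuron list, Aldh1a2, Col3a1 and Slc6a13 of the meninges, Folr1, Ttr and Clic6 of the choroid plexus, Acta2, Vtn and Higd1b of the mural cells, Egfl7, Eng and Esam of the endothelium and Aif1 and Trem2 of the microglia, with log2 fold changes between 1.49 for Egfl7 and 5.09 for Col3a1. No unadjusted p under 0.05 for a higher gene was left in any of these 6 lists without the libraries apart, and Ptgds and Col1a2, 2 of the 4 meningeal genes still tested, were then lower, with -1.05 for Ptgds. Endothelial markers were the list that stayed above 0, and there KO-Cdk5r1-MADM replicate 5 alone reached 341 CPM while the other 6 libraries were between 20.0 and 49.9 CPM, against 15.6 to 105 CPM in Cdk5r1-MADM.

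In the KO-Cdk5r1-MADM libraries 8, 9, 10 and 11, meningeal markers summed to 1686, 342, 614 and 327 CPM, mural markers to 417, 453, 541 and 413 CPM, microglia markers to 380, 1031, 152 and 709 CPM and endothelial markers to 84.2, 644, 298 and 696 CPM. Each of the mural, microglia and meningeal sums is above every library that is not apart. Ttr, the transthyretin gene of the choroid plexus, reached 7942 CPM in KO-Cdk5r1-MADM, against 7.11 to 296 CPM in Cdk5r1-MADM and at most 121 CPM in KO-Cdk5r1-MADM without the libraries apart. Col3a1, the fibrillar collagen gene of the meninges, reached 191 CPM and 1.42 CPM in the same groups of KO-Cdk5r1-MADM. Krt18, a keratin gene of simple epithelia, was at most 0.633 CPM in Cdk5r1-MADM and at most 1.97 CPM in KO-Cdk5r1-MADM outside the libraries apart, but at 17.5 to 80.3 CPM in replicates 8 to 11. The part of these other cell types in the lower neuronal markers was not tested. The neuronal values without these libraries stand beside each list.

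Glial and Cajal-Retzius markers followed the same division. Cajal-Retzius markers had a median of 1.60 over 6 genes and of 0.23 over 3 genes without the libraries apart, and their sum was 232, 93.0, 299 and 273 CPM in KO-Cdk5r1-MADM replicates 8 to 11 and at most 85.3 CPM in the other 7. Reln, the secreted Reelin that these cells supply, and the calcium channel subunit gene Cacna2d2 had log2 fold changes of 1.66 and 2.45, and of 0.23 and 0.92 without the libraries apart, and Calb2, the calretinin gene and the most abundant per kilobase, was at 21.0 to 51.1 and at 8.18 to 106 CPM. Oligodendrocyte progenitor markers had a median of 1.58 over 4 genes, with the growth factor receptor gene Pdgfra at 2.94 and the lineage factor gene Sox10 at 2.64. Only 2 genes were still tested without the libraries apart, and both were lower at an unadjusted p under 0.05, Olig1 and Olig2, with a list median of -1.27. Olig1, the most abundant of them per kilobase and a bHLH factor of the lineage, was at 27.6, 44.8 and 146 CPM in Cdk5r1-MADM and at 6.08, 18.4 and 43.3 CPM in KO-Cdk5r1-MADM without the libraries apart. Of these 7 libraries 4 lay below the lowest Cdk5r1-MADM library, and the adjusted p was 0.898. Astrocyte markers had a median of 0.19 over 5 genes, and -0.26 without the libraries apart. Apoe, their most abundant gene per kilobase, was at 106 to 291 CPM in Cdk5r1-MADM and 90.2 to 1108 CPM in KO-Cdk5r1-MADM, at most 218 CPM without the libraries apart.

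**Figure D2:**
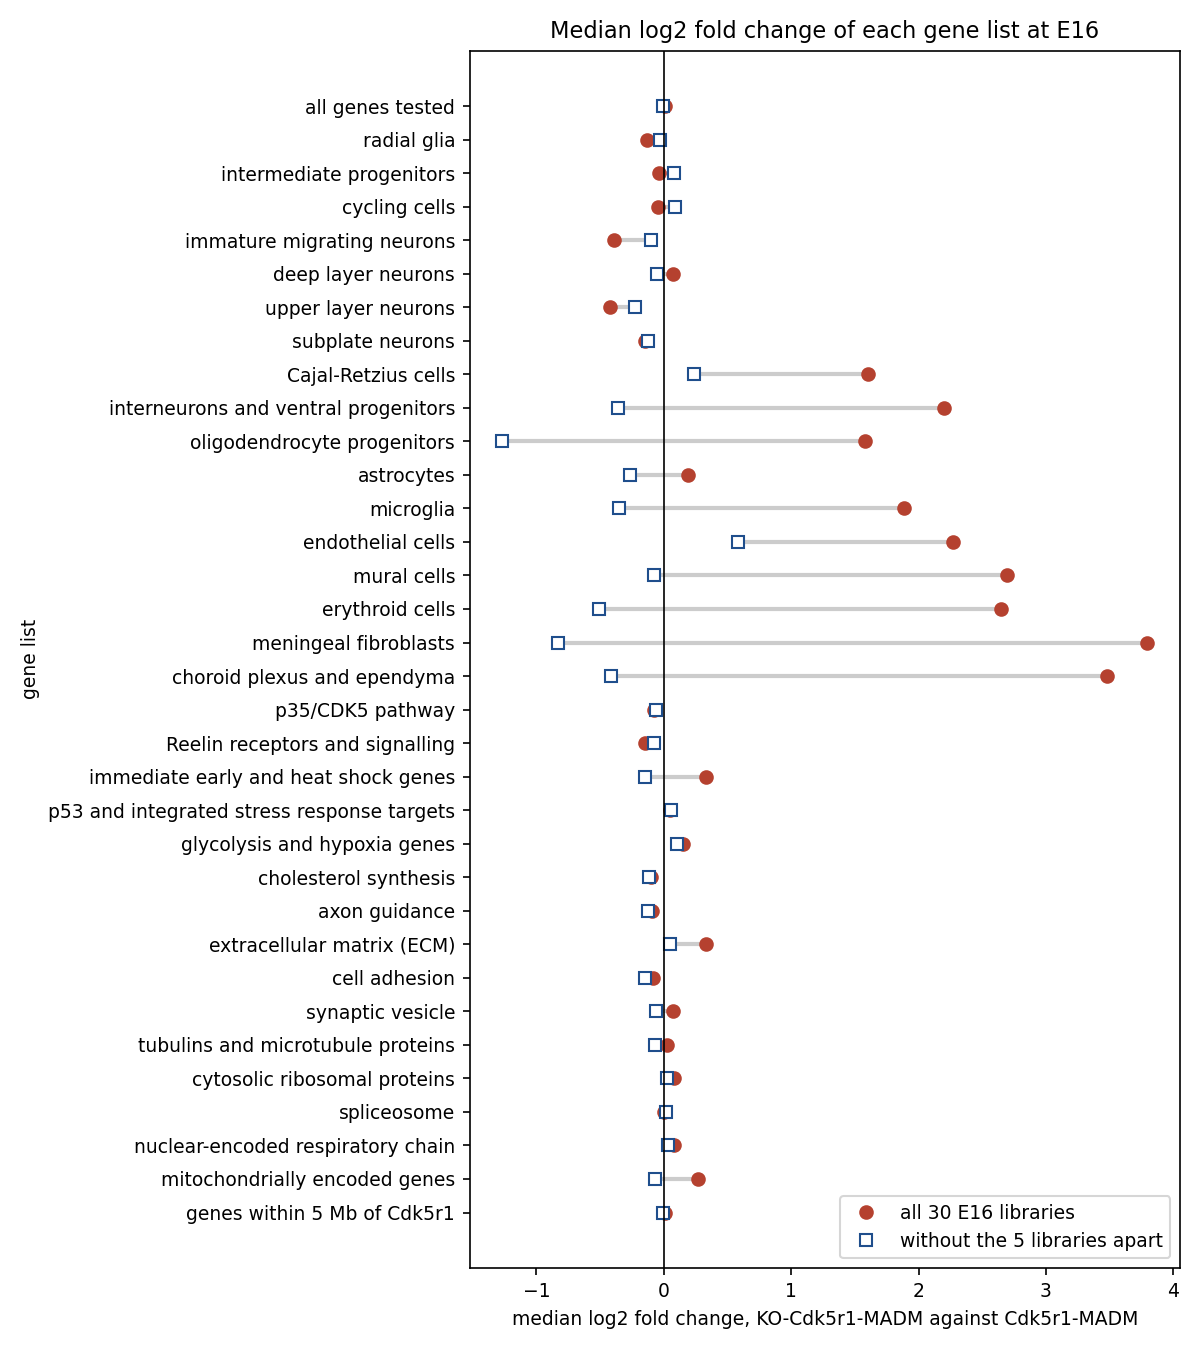
Each line gives 1 gene list and its median log2 fold change at E16, KO-Cdk5r1-MADM against Cdk5r1-MADM, over all 30 libraries (red circles) and without the 5 libraries apart (blue squares), where fewer genes of some lists are tested. Upper layer markers are at -0.42 and -0.23, meningeal markers at 3.80 and -0.83.

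Genes of the p35/CDK5 pathway had a median of -0.08 with 14 of 23 below 0, and of -0.06 with 18 of 23 below 0 without the libraries apart. All lay between -0.64 and 0.22, and 3 were lower at an unadjusted p under 0.05, where 3.98% of all genes were. The lowest was Cdk5rap1, a CDK5 regulatory subunit-associated methylthiotransferase, with -0.64 (SE 0.267, adjusted p = 0.422 in edgeR), and -0.58 without the libraries apart. The highest was Cables1, a linker of CDK5 and ABL1, with 0.22, and -0.07 without the libraries apart. Cdkn1b, the cell cycle inhibitor p27 that CDK5 stabilizes, and Map1b, a microtubule-associated CDK5 substrate, were the others that were lower at an unadjusted p under 0.05 (log2 fold changes -0.40 and -0.58, adjusted p = 0.448 and 0.490), at -0.17 and -0.39 without the libraries apart. Ywhae, the 14-3-3 epsilon gene that is most abundant per kilobase, was at 1080.1 to 1268 CPM in Cdk5r1-MADM and 624 to 1558 CPM in KO-Cdk5r1-MADM. Of the 17 genes of Reelin receptors and signalling, 12 were below 0 with a median of -0.14, and -0.08 without the libraries apart. Dab1, an adaptor of Reelin signalling, was at 287, 351 and 373 CPM in Cdk5r1-MADM and 74.8, 154 and 386 CPM in KO-Cdk5r1-MADM, with a log2 fold change of -0.68 (SE 0.236, p = 0.00723, adjusted p = 0.336 in edgeR) and of -0.33 without the libraries apart. Of the 11 libraries 7 lay below and 1 above the range of Cdk5r1-MADM. The kinase gene Gsk3b had -0.43, and -0.32 without the libraries apart, and Fyn, the Src-family kinase that acts on Dab1 and the most abundant of the list per kilobase, was at 208 to 280 and at 156 to 270 CPM.

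Of 120 extracellular matrix genes tested, 89 had a log2 fold change above 0, with a median of 0.33, and 28 were higher and 5 lower at an unadjusted p under 0.05, where 6.10% and 3.98% of all genes tested were. Without the libraries apart the median was 0.05, with 60 of 105 above 0 and 5 higher and 6 lower. Fewer genes passed the count minimum there, and genes that pass it only with the libraries apart favour a count above 0, so the larger counts are a description. The part of the other cell types in the matrix genes was not tested. The lower matrix genes were Adamts2, Tnc, Ltbp1, Col11a1 and Mmp16. Ccn1, a matricellular protein, was at 69.8, 97.1 and 116 CPM in Cdk5r1-MADM and 87.5, 136 and 196 CPM in KO-Cdk5r1-MADM (log2 fold change 0.58, SE 0.141, adjusted p = 0.269 in edgeR), and at 0.41 without the libraries apart. Col18a1, a basement membrane collagen, had 1.55, and 0.52 without the libraries apart, and the most abundant gene per kilobase, the microfibril gene Mfap2, was at 473 to 559 and 354 to 730 CPM. Adhesion genes, 98 tested, had a median of -0.08 with 18 lower and 4 higher at an unadjusted p under 0.05, against the same shares of all genes. The higher ones were Cdh22, F11r, Lrrtm3 and Mcam, and Ncam1, Chl1, Cdh2, Cdh8 and Nlgn1 were among the lower ones. Without the libraries apart the median was -0.15 over 95 genes, with 64 below 0, 9 lower and 1 higher. Adgrl2, a latrophilin receptor of synapses, was at 107, 114 and 146 CPM in Cdk5r1-MADM and 44.7, 84.2 and 112 CPM in KO-Cdk5r1-MADM (log2 fold change -0.55, SE 0.151, adjusted p = 0.282 in edgeR; -0.39 without the libraries apart). In 10 of 11 KO-Cdk5r1-MADM libraries it was below every Cdk5r1-MADM library. Ctnnb1, the beta-catenin gene and the most abundant per kilobase, was at 593 to 698 and at 530 to 659 CPM.

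Axon guidance genes had a median of -0.09 over 56 genes, and -0.12 over 55 without the libraries apart. Plxna4, a receptor for class 3 semaphorins, was at 230, 251 and 303 CPM in Cdk5r1-MADM and 76.6, 166 and 238 CPM in KO-Cdk5r1-MADM (log2 fold change -0.71, SE 0.202, p = 0.00134, adjusted p = 0.287 in edgeR), and at -0.39 without the libraries apart. In 10 of 11 libraries it lay below the lowest of Cdk5r1-MADM. The netrin-G gene Ntng2, Epha3 and Dcc were the other lower members and the midline repellent gene Slit1 and Ntn1 the higher ones at an unadjusted p under 0.05, with log2 fold changes of -0.65 for Ntng2 and 0.81 for Slit1, at -0.34 and 0.15 without the libraries apart. These are 4 lower and 2 higher of 56 genes, where 3.98% and 6.10% of all genes were, and without the libraries apart 2 lower and 0 higher in edgeR. Efnb1, an ephrin and the most abundant per kilobase, was at 253 to 305 and at 189 to 397 CPM. Synaptic vesicle genes had a median of 0.07 over 55 genes, with 6 higher and 3 lower at an unadjusted p under 0.05, and of -0.07 over 56 without the libraries apart, with 1 higher and 3 lower. Of all genes 6.10% and 3.98% were higher and lower in the former fit and 2.17% and 2.99% in the latter. Rab3c, a vesicle GTPase, was at 81.1, 95.5 and 122 CPM in Cdk5r1-MADM and 36.0, 58.0 and 86.2 CPM in KO-Cdk5r1-MADM, with a log2 fold change of -0.61 (SE 0.179, adjusted p = 0.287 in edgeR) and of -0.60 without the libraries apart, where all 7 libraries lay below Cdk5r1-MADM. With mitochondrial class as a covariate, a measure described below, Rab3c was at 0.04. Rab3a, its most abundant relative per kilobase, was at 679 to 742 and at 546 to 783 CPM. The synapsin gene Syn2 had a log2 fold change of 0.38 and the synaptotagmin gene Syt13 one of 1.64, at 0.21 and 0.37 without the libraries apart. Tubulins and microtubule proteins had a median of 0.02 over 49 genes, and -0.07 without the libraries apart. The minus-end binding protein gene Camsap2 had -0.51 and -0.53, the tubulin gene Tubb6 1.75 and 0.40, and the dynactin gene Dctn1 0.30 and 0.16 with and without the libraries apart, and Tuba1a, the most abundant per kilobase, was at 4679 to 5608 and at 4351 to 7576 CPM.

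Glycolysis and hypoxia genes had a median of 0.15 with 13 of 18 genes above 0, and of 0.11 with 12 of 18 without the libraries apart. At an unadjusted p under 0.05, 5 were higher, Eno1, Aldoa, Hk2, the glucose transporter gene Slc2a1 and Tpi1, and 3 without the libraries apart, Eno1, Hk2 and Pkm, where 6.10% and 2.17% of all genes tested were. The enolase gene Eno1 was at 87.5, 101 and 135 CPM in Cdk5r1-MADM and 101, 163 and 321 CPM in KO-Cdk5r1-MADM (log2 fold change 0.66, SE 0.197, p = 0.00199, adjusted p = 0.287 in edgeR), and at 0.67 without the libraries apart. In 8 of 11 libraries it was above the highest of Cdk5r1-MADM. Hk2, a hexokinase, had log2 fold changes of 0.51 and 0.49, and Aldoa, an aldolase, of 0.49 and 0.19 with and without the libraries apart. Ldha, the lactate dehydrogenase gene that is most abundant per kilobase, was at 406 to 519 and at 388 to 633 CPM. Cholesterol synthesis genes had a median of -0.10 over 22 genes, and -0.12 without the libraries apart, with 15 and 17 genes below 0. At an unadjusted p under 0.05, 6 were lower and 1 higher (3.98% and 6.10% of all genes), and 4 were lower without the libraries apart (2.99%). Hmgcs1, the synthase ahead of HMG-CoA reductase, was at 246, 278 and 296 CPM in Cdk5r1-MADM and 152, 214 and 312 CPM in KO-Cdk5r1-MADM (log2 fold change -0.33, adjusted p = 0.335), and at -0.37 without the libraries apart. Of the 11 libraries 9 lay below the range of Cdk5r1-MADM and 1 above. The squalene synthase gene Fdft1 had log2 fold changes of -0.28 and -0.24 and the phosphomevalonate kinase gene Pmvk of 0.41 and 0.22 with and without the libraries apart, and Mvd, the most abundant per kilobase, was at 107 to 162 and at 102 to 218 CPM.

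Stress genes were higher mainly in the libraries apart. Immediate early and heat shock genes had a median of 0.33 with 14 of 15 above 0, and of -0.15 with 3 of 15 above 0 without those libraries. The transcription factor genes Atf3, Junb and Nr4a1 and the phosphatase gene Dusp1, 4 of 15, were higher at an unadjusted p under 0.05, where 6.10% of all genes were. Junb was at 36.6, 41.3 and 46.6 CPM in Cdk5r1-MADM and 14.3, 47.4 and 260 CPM in KO-Cdk5r1-MADM, with log2 fold changes of 1.44 and, without the libraries apart, of -0.23. Its KO-Cdk5r1-MADM values lie on both sides of the Cdk5r1-MADM range, with 6 libraries above it and 4 below. Atf3 and Nr4a1 had log2 fold changes of 2.48 and 1.44, and of 0.11 and 0.09 without those libraries, and Fos, the most abundant per kilobase, was at 319 to 724 and at 156 to 1203 CPM. Targets of p53 and of the integrated stress response had medians of 0.05 with and 0.06 without the libraries apart, over 15 genes. Among them Chac1, the glutathione-degrading ATF4 target, was at 1.13, 3.20 and 4.99 CPM in Cdk5r1-MADM and 2.63, 7.72 and 21.5 CPM in KO-Cdk5r1-MADM (log2 fold change 1.59, SE 0.352, p = 6.73e-05, adjusted p = 0.172 in edgeR), and at 1.11 without the libraries apart. It was above the highest Cdk5r1-MADM library in 10 of 11 KO-Cdk5r1-MADM libraries, and in 6 of 7 without the libraries apart. Cdkn1a, the p53 target p21, had log2 fold changes of 1.57 and 0.45, and Atf4, the most abundant per kilobase, was at 229 to 437 and at 200 to 419 CPM.

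The housekeeping complexes were near the median of all genes. Cytosolic ribosomal proteins had medians of 0.08 and, without the libraries apart, of 0.03 over 80 genes, spliceosome genes of 0.00 and 0.02 over 66 genes, and the nuclear-encoded respiratory chain of 0.08 over 89 genes and 0.03 over 87. Rpl34 and Rpl4, of the large ribosomal subunit, had log2 fold changes of 1.21 and -0.23, and of 0.52 and -0.16 without the libraries apart, and Rplp1, the most abundant per kilobase, was at 627 to 879 and at 661 to 1092 CPM. The splicing factor genes Srsf11, Prpf39 and Sf3b1 were lower at an unadjusted p under 0.05 (log2 fold changes -0.40, -0.72 and -0.38; -0.31, -0.74 and -0.26 without the libraries apart), and Snrpb, the most abundant, was at 487 to 632 and at 485 to 693 CPM. Of the respiratory chain, Ndufa4l2, an NDUFA4 relative found in pericytes and under hypoxia, had 2.77 and was not tested without the libraries apart, Atp5s had 0.55 and 0.37, and Cox4i1, the most abundant, was at 1866 to 2178 and at 1664 to 2736 CPM. Mitochondrially encoded genes had medians of 0.27 over 18 genes and of -0.07 over 16, with the transfer RNA genes mt-Tq and mt-Tt at 1.17 and 0.79, and at 0.50 and 0.31 without the libraries apart. The ribosomal RNA mt-Rnr2 was the most abundant, at 8280 to 12127 CPM in Cdk5r1-MADM and 7204 to 25405 CPM in KO-Cdk5r1-MADM. Genes within 5 Mb of Cdk5r1 on chromosome 11 had medians of 0.01 over 109 genes and of -0.01 over 103. Of these, Fam57a had 0.59 and 0.33, the vitronectin gene Vtn was at 0 to 8.86 CPM in Cdk5r1-MADM and 0 to 204 CPM in KO-Cdk5r1-MADM, and the chemokine gene Ccl9 at 0 to 0.211 and 0 to 32.0 CPM, both high in libraries apart.

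Itpr1, the IP3 receptor that releases calcium from the endoplasmic reticulum, was among the 10 lower genes of smallest p. It was at 90.9, 106 and 139 CPM in the lowest, median and highest Cdk5r1-MADM library and at 20.6, 63.4 and 80.6 CPM in KO-Cdk5r1-MADM. The log2 fold change was -0.90 (SE 0.202, p = 8.62e-05, adjusted p = 0.184 in edgeR), and -0.64 without the libraries apart (p = 0.000255, adjusted p = 0.214). All 11 KO-Cdk5r1-MADM libraries lay below every Cdk5r1-MADM library, and control-MADM, at 43.2 to 113 CPM, overlapped both. The ADP-ribose hydrolase gene Macrod2 was at 53.8, 60.2 and 82.2 CPM in Cdk5r1-MADM and at 22.9, 36.9 and 56.5 CPM in KO-Cdk5r1-MADM (log2 fold change -0.79, adjusted p = 0.119), and at -0.64 without the libraries apart. In 10 of 11 libraries Macrod2 was lower than in every Cdk5r1-MADM library. The cannabinoid receptor gene Cnr1, Gramd1b, Tmem131 and the predicted gene Gm38381 were also among the 10 lower genes of smallest p, with log2 fold changes of -0.61, -0.63, -0.55 and -1.55, and of -0.52, -0.49, -0.50 and -1.22 without the libraries apart.

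Adamts2, which cleaves procollagens I, II and III, lies on chromosome 11 as Cdk5r1 does, at chr11:50602084-50807573 (plus strand). It was at 24.1, 28.5 and 34.1 CPM in Cdk5r1-MADM and at 7.01, 13.3 and 28.8 CPM in KO-Cdk5r1-MADM. Over all libraries its log2 fold change was -1.01 (SE 0.239, p = 0.000163, adjusted p = 0.243 in edgeR). In the fit without the libraries apart it fell, with a log2 fold change of -1.11 (SE 0.196, p = 3.27e-06, adjusted p = 0.0411 in edgeR), and all 7 KO-Cdk5r1-MADM libraries, at 9.76 to 23.2 CPM, lay below every Cdk5r1-MADM library. Control-MADM overlapped both, at 10.7, 20.0 and 28.4 CPM without its library apart, which was at 46.2 CPM. Keeping that library in the fit ended the call, and no gene then passed edgeR's test, with 581 genes at an unadjusted p under 0.05. DESeq2 was not run on this subset.

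Several of the 10 higher genes of smallest p were of low level. Stat5b, a transcription factor of cytokine and growth hormone receptors, was at 1.5, 2.63 and 3.98 CPM in Cdk5r1-MADM and 4.16, 7.70 and 20.3 CPM in KO-Cdk5r1-MADM (log2 fold change 1.61, SE 0.399, p = 0.000279, adjusted p = 0.275 in edgeR), and at 1.15 without the libraries apart. All 11 KO-Cdk5r1-MADM libraries lay above every Cdk5r1-MADM library, and the library apart of control-MADM was high as well, at 13.6 CPM against 0.786 to 6.80 CPM in the other 11. Nipal3, a magnesium transporter relative, was at 2.11, 6.63 and 7.82 CPM and at 7.15, 15.3 and 22.96 CPM (log2 fold change 1.31, adjusted p = 0.243), and at 1.53 without the libraries apart (adjusted p = 0.0908). Its difference was thus no smaller without those libraries, with 6 of 7 above the highest Cdk5r1-MADM library. Rgs8, a regulator of G protein signalling, the small nucleolar RNA host gene Snhg15, Tmem19 and Tmem179 had log2 fold changes of 1.42, 0.86, 0.53 and 1.04, and of 0.71, 0.64, 0.38 and 0.45 without the libraries apart.

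**Figure D3:**
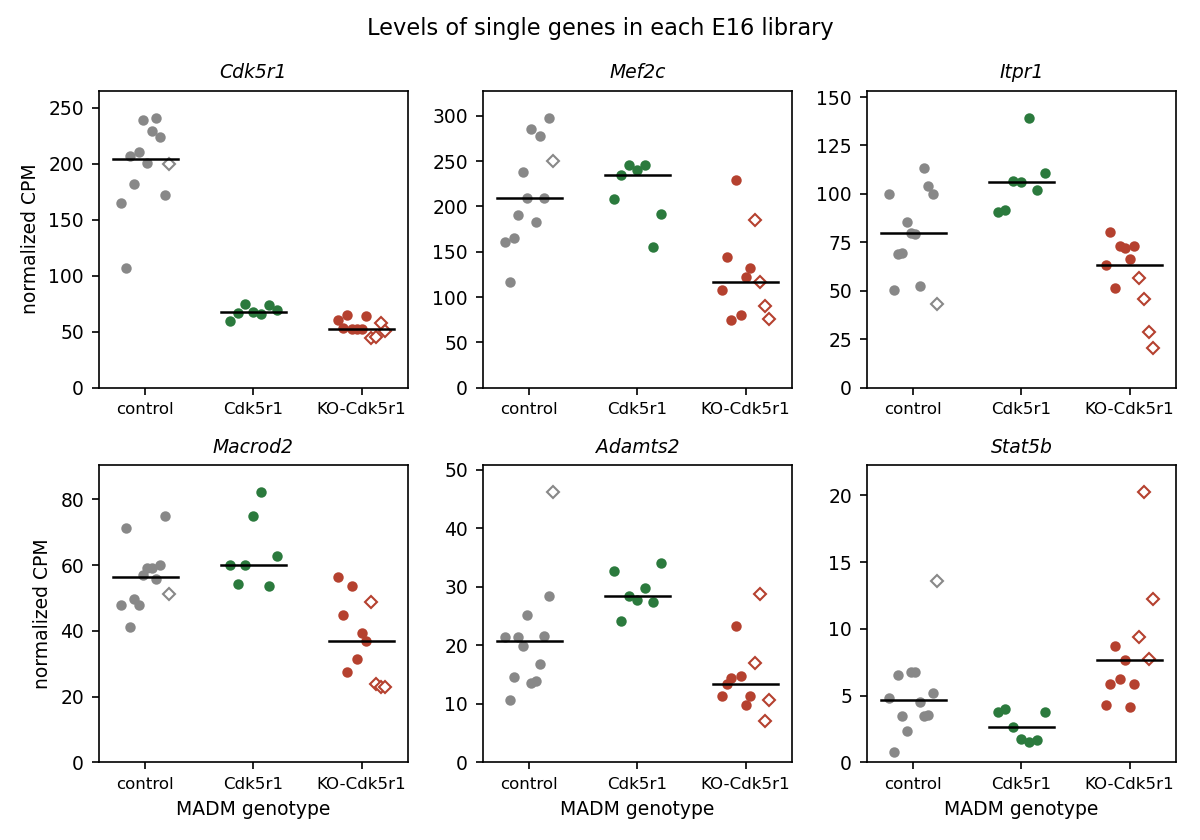
Each point is the normalized CPM of 1 gene in 1 E16 library, on axes that start at 0, with open diamonds for the 5 libraries apart, filled circles for all others and black lines for the median over all libraries of a genotype. Itpr1 in KO-Cdk5r1-MADM, at 20.6 to 80.6 CPM, lies below its range in Cdk5r1-MADM, 90.9 to 139 CPM.

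Between the mutant groups, the called gene mt-Nd3 was counted almost only in Cdk5r1-MADM. It was at 7.73, 9.95 and 10.8 CPM in the lowest, median and highest Cdk5r1-MADM library, while 7 of 11 KO-Cdk5r1-MADM libraries had no read on it and the others at most 2 counts. The pooled level was 91.8-fold higher in Cdk5r1-MADM, with an exact 95% counting interval of 38.9 to 285, from 293 against 5 counts, and the interval covers counting error only. Its adjusted p was 0.00456 (p = 3.56e-07 in edgeR), and 0.0908 without the libraries apart. Gm28438 (chr1:24612775-24613119, minus strand), an unprocessed pseudogene of that gene, showed the reverse, with 0, 0.442 and 1.07 CPM in Cdk5r1-MADM and 12.2, 21.0 and 31.3 CPM in KO-Cdk5r1-MADM. Pooled, it was 51.7-fold higher in KO-Cdk5r1-MADM (exact 95% counting interval 29.45 to 100.4, 971 against 12 counts, adjusted p = 0.0821 in edgeR). The groups do not overlap for either gene. The transcripts of mt-Nd3 (chrM:9459-9806, plus strand, 348 bases) and Gm28438 (345 bases) in GENCODE M21, on mm10, differ at 1 of 345 compared bases, T3C, counted from 1 at the transcripts' 5′ end with mt-Nd3 as the reference, and share 344. The start of each is shown because within the compared bases that base alone, in capitals, tells a read of 1 gene from a read of the other.
mt-Nd3: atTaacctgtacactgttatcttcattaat
Gm28438: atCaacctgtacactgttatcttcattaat
By which of both genes held the reads, all 7 Cdk5r1-MADM libraries were of the mt-Nd3 class and all 11 KO-Cdk5r1-MADM libraries of the Gm28438 class, while control-MADM had 6 of each. At P0 the split was the same, with 6 Cdk5r1-MADM libraries of the mt-Nd3 class, 10 KO-Cdk5r1-MADM libraries of the Gm28438 class and 6 of each in control-MADM. Between the mutant groups the class of the library and the genotype of the tissue cannot be told apart. With the class as a covariate, which the control-MADM libraries make possible, edgeR called 0 genes, with 547 at an unadjusted p under 0.05. Since mt-Nd3 reads set the class, the loss of the mt-Nd3 call was fixed by construction. Each mutant genotype has a single class, so the control-MADM libraries alone estimate the class effect. Control-MADM replicate 12, a library apart, is of the Gm28438 class and enters that effect. Its interneuron, meningeal and microglia sums were 1378, 2611 and 1024 CPM, but its choroid plexus sum was 39.5 CPM. List medians with the class were -0.36 for upper layer and -0.31 for immature neuron markers. Those of interneurons, meninges and choroid plexus were 0.53, 0.43 and 2.54. The part of replicate 12 in these medians was not tested. Microglia (-1.23), erythroid (-0.78), ribosomal (-0.06), spliceosome (-0.15), nuclear respiratory chain (-0.12) and mitochondrially encoded genes (-0.30) turned below 0 and subplate markers (0.22) above it. Medians of the deep layer, intermediate progenitor, stress response target and chromosome 11 lists turned too, to 0.01 on either side of 0. Signs also turned for Rpl34 (-0.01), Atp5s (-0.23) and mt-Tq (-0.18).

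Whether the difference between whole-tissue and sparse deletion at E16 differed from that at P0 was tested as an interaction over 13007 genes. At P0 the log2 fold change was higher than at E16 for 68 genes (0.523%) and lower for 260 (2.00%). Without the libraries apart, all of E16, these were 18 (0.139%) and 25 (0.193%) of 12936. Of the 5 genes of smallest adjusted p in each direction, 9 of 10 passed with and without those libraries, Frmd4b, Frmd6, Kcnn3 and Cdh10 in the positive direction and Inka2, Rin2, Sp8, Btg1 and Stat5b in the negative direction. Frmd6, a FERM-domain protein of the Hippo pathway, had an interaction of 1.40 (SE 0.274, adjusted p = 0.00704 in edgeR), and 1.34 without the libraries apart (adjusted p = 0.00667). At E16 it was at 13.5 to 21.6 CPM in Cdk5r1-MADM and 2.53 to 16.4 CPM in KO-Cdk5r1-MADM, with 10 of 11 libraries below the lowest, and at P0 at 13.1 to 20.2 and 19.3 to 31.8 CPM. KO-Cdk5r1-MADM therefore lay mostly below Cdk5r1-MADM at E16 and mostly above it at P0. Kcnn3, a calcium-activated potassium channel, and the cadherin gene Cdh10 had interactions of 1.15 and 1.31 (adjusted p = 0.00771 and 0.00847), and of 0.89 and 1.03 without the libraries apart (adjusted p = 0.0217 and 0.0465). Frmd4b had 1.18 and 0.86 (adjusted p = 0.00704 and 0.0161). The nitric oxide synthase gene Nos1 had 1.29 (adjusted p = 0.00847), but 1.02 with an adjusted p of 0.0615 without the libraries apart. Stat5b had -2.54 (SE 0.473, adjusted p = 0.00609), and -2.09 without the libraries apart (adjusted p = 0.0192). Sp8, a transcription factor of ventral progenitors and their interneurons, had -2.58 and -1.79 (adjusted p = 0.00704 and 0.0485), Inka2, a PAK4 inhibitor, -2.57 and -2.33 (adjusted p = 0.00184 and 0.0161), the RAB5 exchange factor gene Rin2 -1.95 and -1.47 (adjusted p = 0.00519 and 0.0440) and the antiproliferative gene Btg1 -0.96 and -0.86 (adjusted p = 0.00704 and 0.0440).

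Itpr1 and Adamts2 were picked for their E16 values, which the interaction contains, so their interactions are a description. For Itpr1 the interaction was 1.08 (SE 0.305, adjusted p = 0.0406 in edgeR), and 0.81 without the libraries apart (adjusted p = 0.212). For Adamts2 it was 1.19 (SE 0.295, adjusted p = 0.0176 in edgeR), and 1.28 without the libraries apart (adjusted p = 0.0161), with 44.7 to 82.0 CPM in Cdk5r1-MADM and 45.6 to 109 CPM in KO-Cdk5r1-MADM at P0. The upper layer marker Mef2c had -0.13 (adjusted p = 0.905), and -0.18 without the libraries apart (adjusted p = 0.898), and passed in neither fit. Cux1, like Mef2c picked for its E16 values, had 0.42 (adjusted p = 0.0455 in edgeR), and 0.30 without the libraries apart (adjusted p = 0.247). The upper layer list had a median interaction of 0.25 with 7 of 12 genes above 0. Without the libraries apart its median was 0.004 with 6 of 12 above 0. By lists, radial glia markers had a median interaction of -0.62, and -0.59 without the libraries apart, beside 0.02 and 0.01 over all genes tested. Of the 16 markers 15 were below 0 in both fits, where 6191 of 13007 and 6268 of 12936 of all genes were. Astrocyte markers had -1.56 and -1.21, with 6 of 6 below 0 in both, and oligodendrocyte progenitor markers -4.15 and -1.62. Immature neuron markers had 0.49 and 0.25, with 16 and 14 of 16 above 0. At P0 radial glia sums had medians of 8741 CPM in Cdk5r1-MADM and 4200 CPM in KO-Cdk5r1-MADM, and control-MADM spanned 2620 to 11783 CPM. Astrocyte sums at P0 had medians of 3455 and 1420 CPM in the mutant groups, and control-MADM spanned 741 to 5172 CPM. In the interaction the other lists were as follows. Interneuron and endothelial markers had median interactions of -2.81 and -5.13 over all libraries, and of -0.43 and -3.50 without the libraries apart. The endothelial values include Cdk5r1-MADM replicate 3 at P0, with a summed level of 730 CPM where the group's median was 74.5 CPM, and KO-Cdk5r1-MADM replicate 5 at E16, with 341 CPM.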

How the data were processed

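Per the labels, SMART-Seq v2 libraries of polyadenylated RNA from sorted GFP+ cells were sequenced. The authors aligned the reads to mm10 (GRCm38) with STAR, allowed each read 1 place and used R 3.6.1, and they deposited the counts of reads per gene for each library, neither normalized nor filtered. The strand was ignored. Of all reads of the E16 libraries kept, 54.12% were on genes, 28.59% unmapped, 11.78% outside genes and 5.515% ambiguous between genes, and only those on genes entered library sizes and tests. Of 53379 gene identifiers, 53274 matched GENCODE M21 without their version and 50604 with it. Cdk5r1-MADM replicate 5, below 50% unique alignment, was left out, and no library was removed by its position.

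All 30 E16 libraries of the 3 genotypes were fitted together over genes with a mean count above 10, in R 4.3.3 with edgeR 4.0.16 (limma 3.58.1; TMM, robust quasi-likelihood F test). Adjustment was by Benjamini and Hochberg over all genes tested, and an adjusted p under 0.05 is a call. The interaction of age and genotype was fitted over E16 and P0. Python 3.11.15, pandas 2.3.3, scipy 1.17.1 and matplotlib 3.10.9 were used besides. A gene with a group at or below 3 counts in every library is given by its levels or by the ratio of pooled counts with a counting interval, since its fitted fold change depends on the prior count. List medians are the same to 2 decimals with these genes at that floor. Fitted log2 fold changes of Gm28438 and Ccl9 are given only where changes of sign between settings are listed. Amplified reads without molecular identifiers are not independent molecules.

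Named genes, a few of which are not shown, are Cdk5r1, called genes, the 10 of smallest p in each direction, each list's most abundant member per kilobase and its 3 members of smallest unadjusted p if under 0.05, the extreme p35/CDK5 members, the 5 of smallest adjusted p in each direction of the interaction, mt-Nd3 and Gm28438. The 33 lists, 17 of cell type markers and 16 of gene families, hold each gene once, apart from the chromosome 11 neighbours, and are described by counts and medians, with no test. Members and lists were chosen with earlier results of these data known. Alternatives were DESeq2 1.42.0, RLE normalization, no mean count minimum, no alignment minimum, only both mutant genotypes fitted, a block by replicate number, sex, mitochondrial class or the outside share of reads as a covariate, a minimum of 1000000 gene counts, KO-Cdk5r1-MADM replicates 1 to 8, and each library left out in turn. Leaving out the libraries above 1000 CPM of interneuron markers, with or without control-MADM replicate 12, was added after seeing the data.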

Additional observations from a re-analysis of the deposited data

Results flagged for a closer look

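Each series of Cdk5r1-MADM values at E16 was searched for a library far from the other 6, where the gap to the nearest library, as a share of the range, exceeds Dixon's 95% limit for 7 samples. Of 126 series 16 had one, and chance flags about 1 in 20 groups. Groups above 10 libraries were not searched. Replicate 7 held the highest choroid plexus sum (317 CPM, group median 31.2), with Ttr at 296 CPM (16.2) and Folr1 at 5.06 CPM (0.663), and the highest Vtn (8.86 CPM, 1.04), Hk2 (24.9 CPM, 15), Ntng2 (130 CPM, 108), Krt18 (0.633 CPM, 0) and Ccl9 (0.211 CPM, 0). The share of its reads on more than 1 gene was 6% (5.24). Over the group Krt18 had 4 counts and Ccl9 had 1, and a single count among zeros is flagged by construction. Replicate 2 was highest in the endothelial genes Eng (11.7 CPM, 0.624) and Esam (5.97 CPM, 1.48), replicate 6 in Itpr1 (139 CPM, 106) and Tubb6 (10.7 CPM, 3.95), and replicate 4 in Cdh10 (32.4 CPM, 25.1). Replicate 3 had the lowest erythroid sum (11.3 CPM, 428) and replicate 4 the lowest Nr4a1 (51.6 CPM, 62.1).

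Over all libraries, the effect of whole-tissue against sparse deletion differed between P0 and E16, by the interaction test, for the 10 genes named by rule. Without the libraries apart Nos1 did not pass (1.02, adjusted p = 0.0615 in edgeR). Over all libraries the log2 fold change at P0 minus that at E16 was 1.18 for Frmd4b, 1.40 for Frmd6, 1.15 for Kcnn3, 1.31 for Cdh10, 1.29 for Nos1, -2.57 for Inka2, -1.95 for Rin2, -2.58 for Sp8, -0.96 for Btg1 and -2.54 for Stat5b.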

How the results depend on the processing

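The count of 1 called gene at E16 was the same with RLE normalization, no mean count minimum, a block by replicate number, sex or the outside share of reads as a covariate, and at least 1000000 gene counts. It was 30 with DESeq2, 2 with only the mutant genotypes in the fit (mt-Nd3 and Gm28438) and 360 with no alignment minimum, where Cdk5r1-MADM replicate 5 (615516 counts, 22.4% unique) enters, the median of all genes moves to 0.09 and Cdk5r1 falls, with a log2 fold change of -1.44 (adjusted p = 0.0319). In edgeR it was 0 with mitochondrial class as a covariate (547 genes at an unadjusted p under 0.05), 0 with KO-Cdk5r1-MADM replicates 1 to 8 (487) and 0 without the KO-Cdk5r1-MADM libraries apart and with all control-MADM kept (581), and DESeq2 was not run on these. With class the loss of mt-Nd3 was fixed by construction, since its reads set the class. Leaving out 1 library gave 1 to 8 genes, 8 without KO-Cdk5r1-MADM replicate 4 (Gm28438, Rgs8, Macrod2, Cnr1, Snhg15, Mef2c and mt-Nd3 among them) and 2 without KO-Cdk5r1-MADM replicate 1 (Macrod2 and mt-Nd3). Elsewhere Cdk5r1 stayed between -0.34 and -0.23. Of 33 list medians, 22 were above 0, 10 without the libraries apart and 10 with all control-MADM kept, 15 with mitochondrial class, 28 with no alignment minimum, and 20 to 24 when 1 library was left out. Medians that moved by more than their SD over the KO-Cdk5r1-MADM libraries were 6 with class and 6 with no alignment minimum. They were also 6 without the libraries apart and 6 with all control-MADM kept. With KO-Cdk5r1-MADM replicates 1 to 8 they were 2, with no mean count minimum 2, with the replicate block 1 and with the outside share 1.

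The interaction count of 328 was 544 with DESeq2, 207 with no mean count minimum, 556 with no alignment minimum, 495 with the replicate block and 43 without the libraries apart. Replicate numbers do not pair the groups: over 7 pairs the correlation was -0.129 to 0.249, and 1 library matched its own number best.

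Some log2 fold changes changed sign, here for genes named other than as most abundant. With the replicate block, and with KO-Cdk5r1-MADM replicates 1 to 8, Cables1 was at -0.06. Without the libraries apart Syt6 was at -0.21, Ttr at -0.72, Junb at -0.23, Cables1 at -0.07 and Nos1 at 0.03, and with all control-MADM kept Syt6 was at -0.20, Dlx6 at -0.34, Vtn at -0.83, Col3a1 at -1.10, Ttr at -0.72, Junb at -0.23, Cables1 at -0.07 and Nos1 at 0.03. With mitochondrial class as a covariate Hes1 was at -0.08, Trem2 at -0.84, Rab3c at 0.04, Rpl34 at -0.01, Atp5s at -0.23 and mt-Tq at -0.18. In that fit Gm28438 was at -0.76 and Ccl9 at -0.31. Both genes were at or below 3 counts in every Cdk5r1-MADM library. Their fitted values depend on the prior count, so no change of sign is read from them. Reads of Gm28438 and mt-Nd3 set the class, so the loss of the Gm28438 difference was fixed by construction. Of the genes named only as most abundant, Tubb3, Calb2, Sst, Olig1, Apoe, C1qb, Myl9, Hbb-bs, Ptgds, Fos, Atf4, Mvd, Efnb1, Rab3a, Tuba1a and mt-Rnr2 changed sign without the libraries apart, and other settings were not read for them. Apart from Gm28438, the cause of these changes was not tested. Genes of a few CPM, such as Stat5b and Chac1, rest on few counts per library.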
